A study of Mus musculus with 85 samples.

Results

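The genes described here are the nuclear receptor PPAR-alpha (*Ppara*) and its targets and enzymes in fatty acid oxidation, 29 genes in all. They were chosen by name from the 23608 genes of the count tables, and every one of the 29 symbols was found. By role, they are the receptor (1 gene), uptake, binding, activation and hydrolysis of fatty acids (5 genes), the carnitine shuttle into mitochondria (4), mitochondrial beta-oxidation (7), the auxiliary enzymes for unsaturated fatty acids (3), peroxisomal oxidation (5), microsomal omega-oxidation (3) and the mitochondrial fuel switch *Pdk4* (1).

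RNA-seq was available for 85 libraries in 30 groups, from male mice of 3 inbred strains (C57BL/6J, BALB/cJ, A/J) and of CB6F1/J, the hybrid of BALB/cJ with C57BL/6J, aged 8 to 12 weeks unless the treatment was longer. Untreated hepatocytes (3 C57BL/6J, 2 A/J and 2 BALB/cJ libraries), Kupffer cells (2 of each inbred strain and 4 CB6F1/J), liver sinusoidal endothelial cells (LSECs, 4 of each inbred strain) and stellate cells (4 A/J, 4 BALB/cJ and 3 C57BL/6J) were isolated from liver. Kupffer cells, macrophages that reside in the liver sinusoids, were sorted as CD146-negative, CD45-positive cells that were high for F4/80 and intermediate for CD11b. LSECs were sorted as CD146-positive cells, stellate cells by their vitamin A autofluorescence, and hepatocytes were separated by density. For the LPS groups, 2 BALB/cJ, 2 C57BL/6J and 5 CB6F1/J libraries came from fasted mice injected with 0.1 mg/kg lipopolysaccharide 2 h before. The methods give the controls of this experiment as fasted and not injected. The labels do not say whether the untreated Kupffer libraries used here as controls came from those mice. For the AMLN groups, 4 C57BL/6J, 4 A/J and 3 BALB/cJ libraries came from mice fed 30 weeks on the Amylin liver NASH diet (AMLN), which is high in fat and holds added fructose and cholesterol, so diet, age and feeding state cannot be told apart in their comparison with the untreated cells. For the NSG groups, 3 libraries each of BALB/cJ, C57BL/6J and CB6F1/J donor came from Kupffer cells that grew from donor stem cells in busulfan-conditioned immunodeficient NSG hosts, with livers taken after 4 months, so that transplant, host and age cannot be told apart. Bone marrow-derived macrophages (BMDMs) of the 4 strains were cultured with PBS or with 100 ng/ml Kdo2-lipid A (KLA), an agonist of the LPS receptor, for 2 h, with 2 libraries per group. The study's methods let mice feed freely except where fasting is named, and no fasting is named for the hepatocyte, LSEC and stellate cell libraries, so feeding state may differ along with cell type in comparisons with Kupffer cells. The methods also give the C57BL/6 mice of the diet experiments as lab-maintained, whereas the other inbred mice came from a supplier.

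PPAR-alpha is a lipid-activated transcription factor that binds DNA as a pair with the retinoid X receptor. In the fasted liver it raises the genes that bring fatty acids into mitochondria and peroxisomes and break them down there, and hepatocytes are the cells best known for it. Long-chain fatty acids are bound by FABP1, joined to coenzyme A by acyl-CoA synthetases, passed to carnitine by CPT1A at the outer mitochondrial membrane and shortened in repeated cycles by dehydrogenases, hydratases and thiolases. Peroxisomes shorten very long chains, and CYP4A enzymes oxidize the far (omega) end of the chain.

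The 69 inbred libraries held 5254797 to 42779190 counts each, of which the 29 genes took at least 3776. The 13 hybrid libraries other than NSG held 100283080 to 250588908 reads summed over both parental genomes, a sum in which a read without a variant can count in both. Levels are given as TPM, transcript levels scaled for length and library, which the authors computed for the isoform with the highest count. Comparisons of TPM between genes therefore depend on the isoform used. Differences are log2 differences fitted by edgeR's quasi-likelihood test on counts, with their standard error (SE), and adjusted p is Benjamini-Hochberg over all genes tested in that comparison. A gene was tested where it passed the low-count filter and its mean was above 8 TPM in at least 1 of the groups compared, and it was called where adjusted p was under 0.05 and the change exceeded 2-fold. Nothing says for each library that it came from its own animal or culture, so these p-values measure the spread between the libraries, which may be partly technical. In bulk RNA, fewer cells of a type and less RNA per cell cannot be told apart. The sorted populations carried their own defining markers: *Clec4f* was 5275 to 7568 TPM in untreated inbred Kupffer cells, the 8 LSEC markers summed to 8962 to 11960 TPM in LSECs, and albumin (*Alb*) was 54391 to 102535 TPM in hepatocytes. Each liver population also carried hepatocyte RNA, with *Alb* at 77.5 to 366 TPM in untreated inbred Kupffer cells, 556 to 5515 TPM in LSECs and 183 to 1669 TPM in stellate cells, against 0 to 0.013 TPM in BMDMs. Stellate libraries held *Clec4f* at 87.1 to 2469 TPM and the 8 LSEC markers at a sum of 1725 to 4888 TPM. The part of Kupffer and LSEC RNA in the stellate levels of the members was not tested.

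Promoters from 250 bases before to 50 bases after the start were read from RefSeq (GRCm38.p6, the assembly of mm10) for 21 of the 29 genes. The motif searched was the direct repeat of AGGTCA with 1 base of any kind between the copies, the form that PPAR-alpha and the retinoid X receptor are known to bind, on both strands with at most 2 mismatches over its 12 defined letters. It was found in 3.86% of the 32851 promoters of the table and in 2 of the 22 promoters of these 21 genes, 9.09%. A count of 2 is too small to show an enrichment. These 2 sequences are shown because *Fabp1* had the highest level of all members in hepatocytes, while *Slc25a20*, the carnitine-acylcarnitine carrier, was present at similar levels in every other cell type. The match in *Fabp1* (AGGCCATAGGTCA, minus strand, 1 mismatch) spans bases -67 to -55 from the start. The match in *Slc25a20* (AGGTGAAAGGTCG, plus strand, 2 mismatches) lies 6 to 18 bases after the start, and only 30 bases around it are printed. Capitals mark the match as it reads on the plus strand, 5′ to 3′, at chr6:71199629-71199878 and at chr9:108662134-108662163.
*Fabp1*: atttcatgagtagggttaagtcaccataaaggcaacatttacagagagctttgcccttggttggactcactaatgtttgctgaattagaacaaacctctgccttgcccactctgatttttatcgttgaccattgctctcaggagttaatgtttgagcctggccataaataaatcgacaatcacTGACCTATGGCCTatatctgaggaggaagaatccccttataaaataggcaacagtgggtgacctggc
*Slc25a20*: ctgaatgtAGGTGAAAGGTCGgcggagccg
A match describes these letters and is not a binding site. The divergent *Hadha* and *Hadhb*, which encode the subunits of the mitochondrial trifunctional protein, start from overlapping windows (chr5:30154931-30155230 and chr5:30155003-30155302) in which no match was found.

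The 29 genes were chiefly hepatocyte genes. Together they took 1.06 to 2.28% of all TPM in hepatocytes, 0.155 to 0.616% in LSECs, 0.142 to 0.228% in stellate cells, 0.123 to 0.141% in Kupffer cells and 0.104 to 0.116% in BMDMs of the inbred strains. By mean TPM of the untreated libraries, taken within each strain and then over the strains, 25 of the 29 were highest in hepatocytes, 2 in LSECs (*Cyp4a14* and *Pdk4*), 1 in Kupffer cells (*Acot1*) and 1 in BMDMs (*Crat*). Against Kupffer cells, 26 of 28 tested members were higher in hepatocytes and 1 was lower, against LSECs 24 of 29 were higher and 1 lower, and against stellate cells 26 of 29 were higher and 1 lower. The background was large: 60.1%, 60.8% and 61.5% of all genes tested were called in these comparisons, and 29.6%, 30.2% and 27.8% were called higher in hepatocytes. The median fitted difference of the members was 3.71, 3.39 and 3.35, beside -0.06, -0.04 and -0.19 over all genes tested. The counts moved with the scaling. With library totals in place of trimmed-mean (TMM) scaling, the medians of all genes moved to -0.91, -1.04 and -1.10 and the share of calls that were higher in hepatocytes went from 49.2, 49.7 and 45.2% to 29.8, 27.9 and 25.9%, while 24, 22 and 23 members were still called higher.

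**Figure D1:**
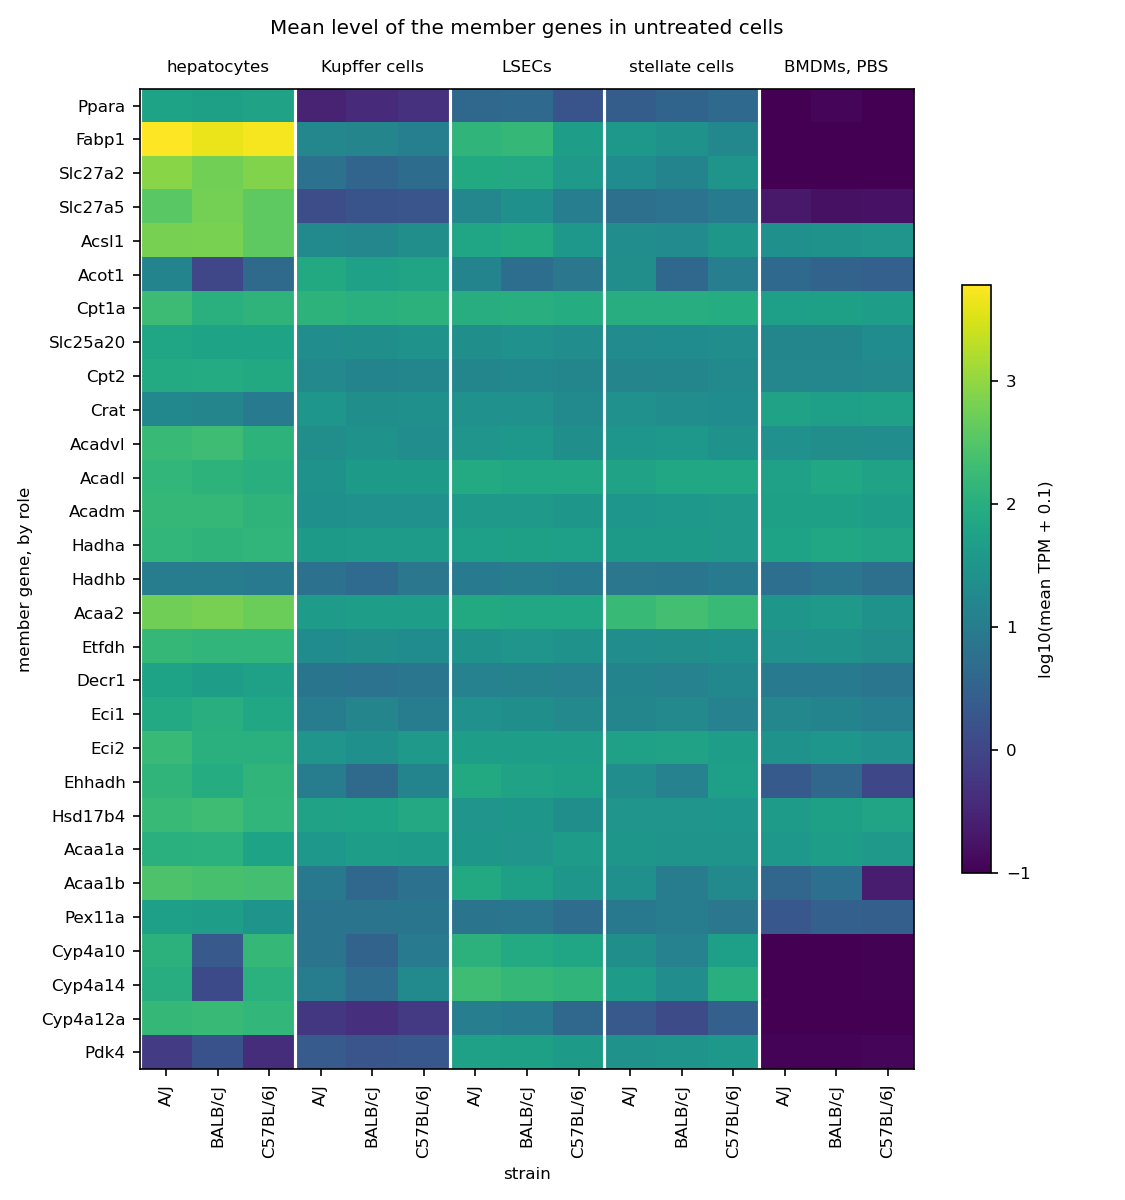
Mean level of each of the 29 genes, ordered by role from top to bottom, in untreated cells of 3 inbred strains. Color gives log10 of the mean TPM plus 0.1 over the libraries of a group (2 to 4 libraries). Hepatocytes hold the highest mean of 25 genes, while *Acot1*, *Crat*, *Cyp4a14* and *Pdk4* are highest elsewhere.

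The receptor itself was highest in hepatocytes. *Ppara* ranged from 46.0 to 66.4 TPM (median 57) over the 7 hepatocyte libraries, from 1.62 to 4.62 (median 3.28) over 11 stellate libraries, from 0.868 to 12.4 (median 1.75) over 12 LSEC libraries and from 0.173 to 0.54 (median 0.234) over 6 Kupffer libraries. In BMDMs it did not exceed 0.022 TPM. The hepatocyte range overlapped no other, whereas LSEC and stellate libraries overlapped. Fitted differences were 8.69 ± 0.67 against Kupffer cells, 5.58 ± 0.42 against LSECs and 5.43 ± 0.43 against stellate cells (adjusted p = 4.8e-14, 2.1e-14 and 7.9e-14). The 3 highest LSEC values, 12.4 in BALB/cJ and 5.66 and 7.51 in A/J, belonged to the 3 LSEC libraries highest in *Alb*.

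Uptake and activation genes covered the widest span. *Fabp1*, the abundant fatty acid binding protein of the hepatocyte cytosol, was 2811 to 7726 TPM (median 4433) in hepatocytes, 29.5 to 426 in LSECs, 6.88 to 77.9 in stellate cells and 9.8 to 19.3 in Kupffer cells, and it was listed at 0 in every PBS-treated BMDM library of the inbred strains. *Slc27a2* and *Slc27a5*, very long chain acyl-CoA synthetases of the fatty acid transport protein family, averaged 729 and 454 TPM in hepatocytes against 4.83 and 1.51 in Kupffer cells. The long-chain acyl-CoA synthetase *Acsl1* averaged 567 TPM in hepatocytes, 61.5 in LSECs, 28.5 in BMDMs, 25.3 in stellate cells and 19.6 in Kupffer cells. All 4 of these genes were called higher in hepatocytes in each of the comparisons, by 4.58 or more on the log2 scale. *Acot1*, the cytosolic acyl-CoA thioesterase that releases the free fatty acid again, ran the other way. It was 52.8 to 82.2 TPM (median 60.8) in Kupffer cells, 2.65 to 33.1 in stellate cells, 1.79 to 26.1 in LSECs, 0.33 to 23.5 (median 5.24) in hepatocytes and 2.77 to 4.51 in BMDMs. No library of another population reached the lowest Kupffer value. The fitted hepatocyte difference was -2.76 ± 0.51 against Kupffer cells (adjusted p = 8.8e-06), and it missed the threshold against LSECs (0.67 ± 0.44, adjusted p = 0.15) and stellate cells (0.23 ± 0.44, adjusted p = 0.62). *Acot1* has close paralogs, *Acot2* and *Acot3*, so that the division of reads among them is uncertain.

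The carnitine shuttle was the flattest of the groups. *Cpt1a*, which sets the rate of entry into mitochondria, was 102 to 219 TPM (median 134) in hepatocytes, 106 to 126 in Kupffer cells, 77.9 to 141 in LSECs, 84.5 to 103 in stellate cells and 47.8 to 54.4 in BMDMs. On the TPM scale the hepatocyte and Kupffer ranges overlapped. The fitted differences of 1.34 ± 0.14, 1.96 ± 0.11 and 1.90 ± 0.11 passed the test, but with library totals they were 0.47, 0.94 and 0.97 and no longer exceeded 2-fold. *Slc25a20* averaged 61.7 TPM in hepatocytes and 17.4 to 24.7 in the other populations, and *Cpt2*, the carnitine palmitoyltransferase of the inner membrane, 84.4 against 15.7 to 16.8. *Crat*, carnitine acetyltransferase, was lowest in hepatocytes, at 5.87 to 22.2 TPM (median 11.7), beside 22.9 to 34.0 in Kupffer cells and 48.6 to 59.9 in BMDMs. Its fitted difference was -0.00 ± 0.14 against Kupffer cells (adjusted p = 0.99) and 0.54 ± 0.12 and 0.47 ± 0.12 against LSECs and stellate cells, where its mean TPM was nonetheless lower in hepatocytes, 13.5 against 23.8 and 22.9, so that its direction depends on the scaling.

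All 7 mitochondrial beta-oxidation genes and all 3 auxiliary enzymes were called higher in hepatocytes in each of the 3 comparisons. *Acaa2*, the mitochondrial thiolase, was 448 to 649 TPM (median 589) in hepatocytes, 137 to 255 in stellate cells, 48.1 to 131 in LSECs, 42.3 to 47.6 in Kupffer cells and 26.2 to 37.6 in BMDMs. These ranges did not overlap between hepatocytes and any other population, nor between stellate cells and LSECs. *Acadm*, medium-chain acyl-CoA dehydrogenase, was 102 to 167 TPM in hepatocytes against 22.1 to 28.7 in Kupffer cells and 44.5 to 54.1 in BMDMs. The very long chain and long chain dehydrogenases *Acadvl* and *Acadl* averaged 166 and 124 TPM in hepatocytes and 24.0 and 35.997 in Kupffer cells. *Etfdh*, which passes the electrons of these dehydrogenases to ubiquinone, averaged 143 TPM in hepatocytes and 21.7 to 28.8 elsewhere. The 2 subunits of the trifunctional protein had different TPM: *Hadha* averaged 140 TPM in hepatocytes and 42.1 in Kupffer cells, and *Hadhb* 10.1 and 6.07. The part of the isoform used in this gap between the 2 genes was not tested. The *Hadhb* difference was called in each comparison (1.79 ± 0.18, 1.47 ± 0.14 and 1.55 ± 0.15) and fell below 2-fold with library totals (0.93, 0.47 and 0.64). Among the auxiliary enzymes, the dienoyl-CoA reductase *Decr1* and the enoyl-CoA isomerases *Eci1* and *Eci2* averaged 53.6, 87.3 and 128 TPM in hepatocytes beside 7.04, 11.7 and 31.3 in Kupffer cells.

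Peroxisomal genes were all called higher in hepatocytes, from very different levels elsewhere. *Hsd17b4*, the peroxisomal D-bifunctional protein, averaged 170 TPM in hepatocytes, 64.6 in Kupffer cells, 52.6 in BMDMs and 29.7 and 31.4 in LSECs and stellate cells, so that macrophages held more of it than the other non-parenchymal cells. *Ehhadh*, the L-bifunctional protein, averaged 121 TPM in hepatocytes, 63.3 in LSECs, 28.6 in stellate cells, 9.61 in Kupffer cells and 2.29 in BMDMs. The peroxisomal thiolases *Acaa1a* and *Acaa1b*, close paralogs whose reads may be hard to assign, averaged 93.6 and 252 TPM in hepatocytes and 41.8 and 6.26 in Kupffer cells. *Pex11a*, a peroxisome proliferation factor, averaged 42.1 TPM in hepatocytes and 2.50 to 8.92 in the other populations.

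The omega-oxidation genes split. *Cyp4a12a* was 87.8 to 191 TPM (median 167) in hepatocytes, at most 31.2 in LSECs and 4.21 in stellate cells, under 1 TPM in Kupffer cells and listed at 0 in BMDMs. *Cyp4a10* averaged 90.3 TPM in hepatocytes and 89.2 in LSECs, with a fitted difference of 1.04 ± 0.71 (adjusted p = 0.16), and *Cyp4a14* averaged 70.1 and 163 TPM, with a fitted difference of -0.29 ± 0.74 (adjusted p = 0.71). Both were called higher in hepatocytes than in Kupffer cells (4.79 ± 0.94 and 3.53 ± 0.92, the latter 2.90 without C57BL/6J hepatocyte replicate 2), and against stellate cells the differences were 2.94 ± 0.69 and 1.61 ± 0.70. The last of these, for *Cyp4a14* (adjusted p = 0.031), was lost in 5 of 36 fits that left out 1 library, with values of 0.99 (without C57BL/6J hepatocyte replicate 2) to 1.53. The levels of these 2 genes in hepatocytes depended on the strain, as described below. *Pdk4*, the kinase that shuts off pyruvate dehydrogenase when fat is burned, was nearly absent from hepatocytes (0.189 to 1.66 TPM, median 0.418) and Kupffer cells (1.70 to 2.54), and was 35.96 to 62.0 TPM (median 51.9) in LSECs and 19.04 to 37.3 in stellate cells. Against LSECs and stellate cells it was lower in hepatocytes by 4.63 ± 0.24 and 4.10 ± 0.24 on the log2 scale (adjusted p = 9.3e-19 and 2.1e-17), and it was not tested against Kupffer cells because both means were under 8 TPM.

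**Figure D2:**
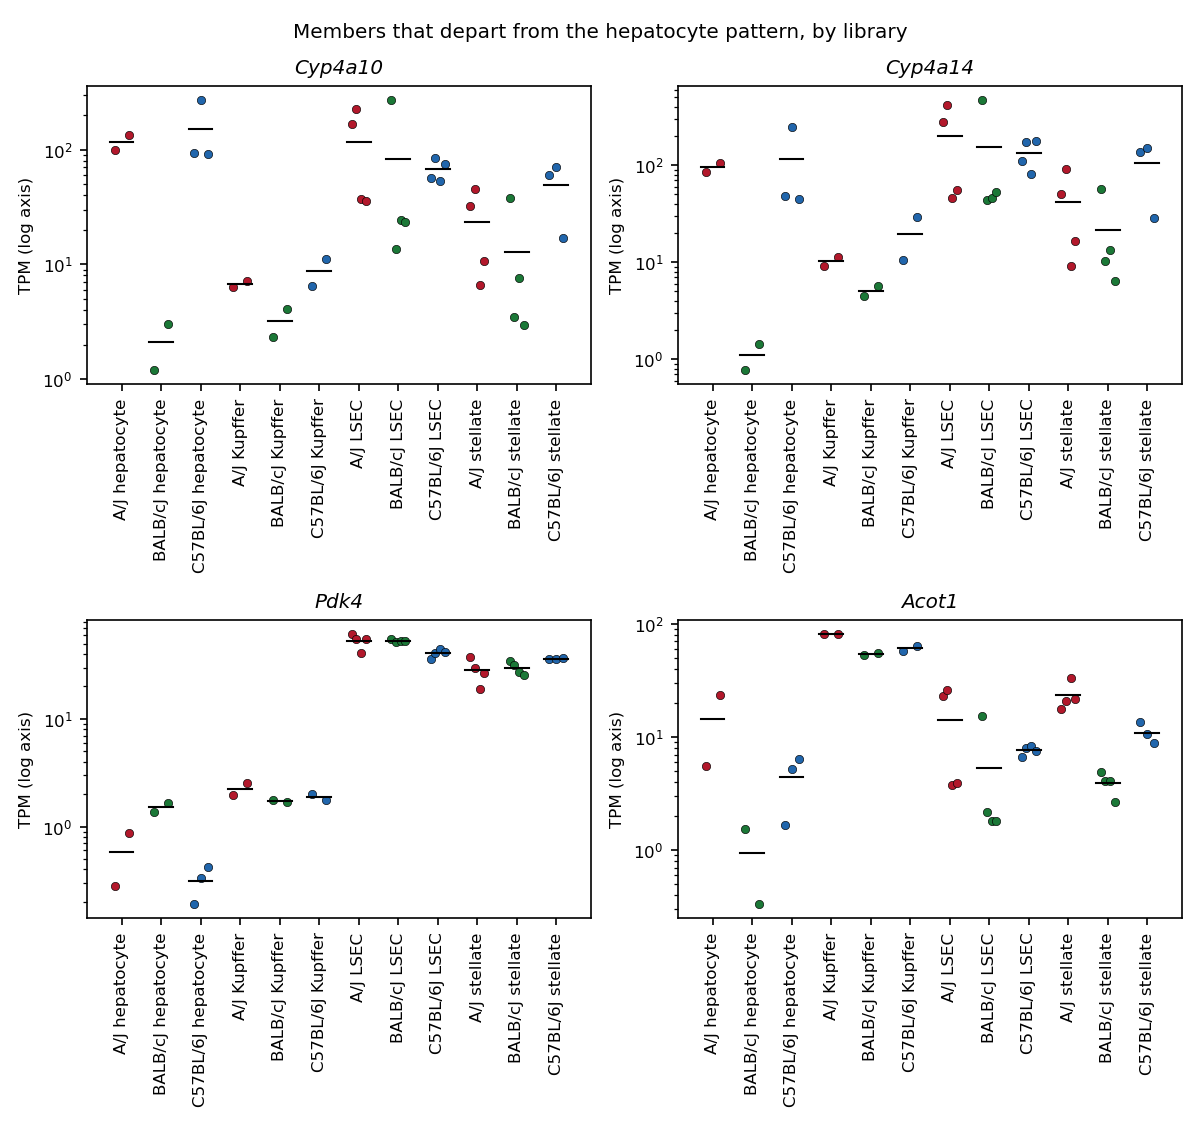
Level in TPM (log axis) of 4 genes in each untreated library, by cell type and strain; points are libraries and bars are group means. *Cyp4a10* and *Cyp4a14* lie near the foot of the scale in both BALB/cJ hepatocyte libraries, *Pdk4* is high in LSECs and stellate cells, and *Acot1* is highest in Kupffer cells.

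Hepatocyte RNA in the LSEC libraries was set beside these levels. Each percentage here is of the mean over all 7 hepatocyte libraries of the 3 strains. BALB/cJ hepatocytes averaged 2.10 TPM of *Cyp4a10* and 1.11 TPM of *Cyp4a14*, below that mean. *Alb* in the 12 LSEC libraries was 0.684 to 6.79% of its hepatocyte mean, and *Fabp1* was 0.563 to 8.14%. In the same libraries *Ehhadh* was 11.1 to 142%, *Cyp4a10* 13.8 to 274% and *Cyp4a14* 56.9 to 620% of the hepatocyte mean. Within each strain the libraries high in *Alb* were also high in these genes: *Cyp4a14* was 280 and 421 TPM in the A/J LSEC libraries with *Alb* at 4844 and 5515 TPM, against 45.7 and 55.8 in those with *Alb* at 985 and 894, and in BALB/cJ it was 474 TPM in the library with *Alb* at 5223 and 43.5 to 52.7 in the others. The part of this RNA in the LSEC levels of the other members was not tested. Without these 3 libraries, an alternative chosen after seeing the data, *Cyp4a10* was called higher in hepatocytes than in LSECs (2.20 ± 0.57, adjusted p = 7.2e-04) and *Cyp4a14* was still not called.

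Most tested genes of 2 further lists of oxidation genes were likewise higher in hepatocytes than in Kupffer cells, whereas the partners and co-regulators were not. Of 16 tested genes of other mitochondrial oxidation and ketogenesis, 13 were called higher in hepatocytes than in Kupffer cells and 1 lower, and of 16 tested genes of other peroxisomal oxidation 12 were called higher and 1 lower. Of 12 tested partners and co-regulators, 3 were higher and 3 lower, and of 19 other targets of PPAR-alpha 11 were higher and 4 lower. Over the 4 lists together, 42 of 61 tested genes were called higher and 8 lower against LSECs, and 41 of 63 higher and 10 lower against stellate cells.

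Among strains, the largest member difference was the low level of 2 omega-oxidation genes in the 2 BALB/cJ hepatocyte libraries. Feeding state and preparation are not labeled for each library, so they cannot be told apart from strain here. *Cyp4a10* was 98.7 and 133 TPM in A/J, beside 1.19 and 3.01 in BALB/cJ and 94.2, 274 and 91.1 in C57BL/6J. *Cyp4a14* was 85.7 and 104 TPM in A/J, beside 0.765 and 1.45 in BALB/cJ and 48.4, 249 and 44.9 in C57BL/6J. The BALB/cJ libraries lay below every library of the other strains for both genes. A/J exceeded BALB/cJ by 5.93 ± 0.83 for *Cyp4a10* (adjusted p = 0.0089) and 6.56 ± 1.24 for *Cyp4a14* (adjusted p = 0.033), and BALB/cJ was below C57BL/6J by the fitted differences -6.34 ± 0.83 and -6.84 ± 1.23 (adjusted p = 0.0037 and 0.015). These were the only members called, of 28, 28 and 27 tested in A/J against BALB/cJ, A/J against C57BL/6J and BALB/cJ against C57BL/6J, where 5.48%, 3.67% and 9.25% of all genes were called. No member was called between A/J and C57BL/6J by edgeR or DESeq2, and 6 had an unadjusted p under 0.05. Sizes and adjusted p both moved when 1 library was left out. Over these fits *Cyp4a10* was 5.36 to 6.73 for A/J over BALB/cJ and -7.14 to -5.63 for BALB/cJ below C57BL/6J, and *Cyp4a14* was 6.12 to 7.07 and -7.35 to -5.56. Without C57BL/6J replicate 2, the library highest in both genes, BALB/cJ was below C57BL/6J by the differences -5.63 for *Cyp4a10* and -5.56 for *Cyp4a14*, and without BALB/cJ replicate 2 *Cyp4a10* gave the 6.73 and the -7.14. The *Cyp4a14* call was lost without any single A/J or BALB/cJ library in the comparison of A/J with BALB/cJ (6.12 to 7.07, adjusted p = 0.092 to 0.18) and without either BALB/cJ library in that with C57BL/6J (-7.35 to -6.40, adjusted p = 0.084 to 0.097), and *Cyp4a10* lost its call against A/J without A/J replicate 2 (5.66, adjusted p = 0.061).

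Other genes of the cluster differed from each other in this respect. *Cyp4a12a*, the third omega-oxidation member, at chr4:115299046-115332815 in mm10, lies in the same cluster as *Cyp4a14* (chr4:115486200-115496158) and *Cyp4a10* (chr4:115518287-115533649), and in hepatocytes it was 120 and 187 TPM in A/J, beside 167 and 176 in BALB/cJ and 162, 87.8 and 191 in C57BL/6J, with overlapping ranges. *Cyp4a31* (chr4:115563627-115579015), the next gene of the family after *Cyp4a10*, was lowest in BALB/cJ hepatocytes without overlap, at levels below the TPM limit of the test: it ranged from 0.045 to 0.171 TPM there, from 0.686 to 1.90 in A/J and from 1.61 to 6.56 in C57BL/6J. It is on the list of other targets and was named here for its position after its values were seen. 2 more genes of the cluster, from the list of other targets, had other orders of the strains. *Cyp4a32* averaged 145, 27.3 and 17.9 TPM and *Cyp4a12b* 1.34, 13.4 and 47.0 TPM in hepatocytes of the 3 strains, in the order A/J, BALB/cJ, C57BL/6J. The fitted differences of *Cyp4a32* were 2.52 ± 0.37 and 3.02 ± 0.33 for A/J over BALB/cJ and C57BL/6J, and those of *Cyp4a12b* were -3.14 ± 0.68, -5.06 ± 0.69 and -1.92 ± 0.55 in the 3 comparisons in turn. Genes of this family share sequence, so the assignment of reads between them is uncertain. Reads were aligned to mm10 carrying the variants of each strain, and the effect of larger sequence differences between strains at this cluster was not tested.

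Other genes of the pathway were also lower in BALB/cJ hepatocytes, and *Vnn1* and the peroxisomal reductase *Decr2* were called so against both other strains. Over the 4 lists, 4 of 54 tested genes were called higher and 1 lower in A/J relative to BALB/cJ, 1 of 55 higher and 3 lower in A/J relative to C57BL/6J, and 3 of 54 higher and 8 lower for BALB/cJ relative to C57BL/6J. Of all genes tested, 3.19% were called higher and 2.29% lower in the first comparison, 1.87% and 1.80% in the second and 4.36% and 4.89% in the third. *Vnn1*, a pantetheinase known as a target of PPAR-alpha, was 2.98 and 13.4 TPM in A/J, beside 0.278 and 0.213 in BALB/cJ and 6.52, 14.2 and 22.3 in C57BL/6J, with fitted differences of 5.15 ± 1.07 and -5.92 ± 1.04 (adjusted p = 0.033 and 0.01). *Acot3*, a peroxisomal thioesterase, was 25.2 and 41.03 TPM in A/J, beside 0.146 and 0.318 in BALB/cJ and 0.677, 13.02 and 5.36 in C57BL/6J, called only for A/J over BALB/cJ (7.34 ± 1.51, adjusted p = 0.041).

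In LSECs the same pair of genes did not lie so low in BALB/cJ. *Cyp4a10* was 166, 228, 36.9 and 35.9 TPM in A/J, beside 272, 13.7, 24.5 and 23.6 in BALB/cJ and 56.2, 84.5, 53.2 and 75.5 in C57BL/6J, and *Cyp4a14* was 280, 421, 45.7 and 55.8, then 474, 43.5, 45.6 and 52.7, then 110, 173, 80.2 and 175 TPM. The strains overlapped for both genes. In 1 fit of hepatocytes and LSECs, added after seeing the data, the strain difference in hepatocytes minus that in LSECs was 5.43 ± 1.69 for *Cyp4a10* and 6.15 ± 1.79 for *Cyp4a14* for A/J minus BALB/cJ (adjusted p = 0.047 and 0.036), and -6.75 ± 1.71 and -7.12 ± 1.81 when C57BL/6J was taken from BALB/cJ (adjusted p = 0.014 for both). *Pdk4* also differed between the cell types, by -1.20 ± 0.36 and 1.61 ± 0.36 (adjusted p = 0.037 and 0.0052), at hepatocyte levels of at most 1.66 TPM. These 3 were called of the members tested, where 7.21% of all genes were called for A/J minus BALB/cJ and 8.56% for BALB/cJ minus C57BL/6J. For A/J minus C57BL/6J none of 29 members was called by edgeR or DESeq2, against 5.85% of all genes, and 1 had an unadjusted p under 0.05. The first *Cyp4a10* value was lost in 14 of 19 fits that left out 1 library (3.44 to 6.16), the others in 0 to 8. Without BALB/cJ LSEC replicate 1, a library high in *Alb*, the *Cyp4a10* values were 3.44 and -4.76 and the *Cyp4a14* values 4.47 and -5.44, and without A/J hepatocyte replicate 2 the first *Pdk4* value was -2.41.

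Within LSECs, no member was called between strains of 27, 27 and 26 tested, by edgeR or DESeq2, against 2.67%, 4.14% and 3.86% of all genes. An unadjusted p under 0.05 was found for 1, 4 and 3 of them. Leaving out the 3 libraries high in *Alb* changed this count to 5 members, each lower than in C57BL/6J: *Cyp4a14* (-1.35) and *Slc27a5* (-1.13) in A/J, and *Ehhadh* (-1.70, adjusted p = 3.1e-04), *Cyp4a10* (-1.68, adjusted p = 9.1e-04), *Cyp4a14* (-1.49) and *Acaa1b* (-1.03) in BALB/cJ.

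In Kupffer cells the strain differences of the members were smaller. *Ehhadh* was 7.98 and 12.5 TPM in A/J, beside 4.29 and 4.65 in BALB/cJ and 14.9 and 13.3 in C57BL/6J. BALB/cJ was lowest without overlap, with fitted differences of 1.13 ± 0.19 for A/J over BALB/cJ (adjusted p = 0.0024) and -1.62 ± 0.19 for BALB/cJ below C57BL/6J (adjusted p = 1e-04). *Acaa1b* was 8.54 and 8.44 TPM in A/J, beside 4.04 and 3.76 in BALB/cJ and 5.02 and 7.74 in C57BL/6J, called for A/J over BALB/cJ (1.07 ± 0.27, adjusted p = 0.023) and lost in 3 of 6 fits that left out 1 library (0.96 to 1.13). *Cyp4a10* was 6.37 and 7.20 TPM in A/J, beside 2.34 and 4.04 in BALB/cJ and 6.47 and 11.03 in C57BL/6J, called for BALB/cJ below C57BL/6J (-1.43 ± 0.32, adjusted p = 0.0089) and lost without BALB/cJ replicate 1 (-1.07, adjusted p = 0.069). In these libraries *Alb* was 77.5 and 161 TPM for BALB/cJ, 101 and 309 for C57BL/6J and 233 and 366 for A/J. The sum of all 12 hepatocyte markers was instead highest in BALB/cJ, at 2467 and 2303 TPM, beside 1602 and 1723 for C57BL/6J and 1333 and 1835 for A/J. *Alb* was a minor part of these sums, whereas it was most of the sum in hepatocytes (97511 of 152038 TPM in A/J replicate 1). The sum may therefore not follow hepatocyte RNA in Kupffer cells. The part of hepatocyte RNA in these differences was not tested. Called members were 2 of 20 in A/J against BALB/cJ, 0 of 21 in A/J against C57BL/6J and 2 of 20 in BALB/cJ against C57BL/6J, against 3.38%, 4.61% and 5.7% of all genes. For A/J against C57BL/6J, DESeq2 also called 0, and 5 members had an unadjusted p under 0.05. *Acot1* was 80.9 and 82.2 TPM in A/J, beside 52.8 and 55.1 in BALB/cJ and 57.4 and 64.3 in C57BL/6J, with differences of 0.55 and 0.42 for A/J that passed adjusted p under 0.05 without reaching 2-fold. Of 44 other pathway genes tested in each comparison, *Lpin1*, a phosphatidate phosphatase and coactivator, was called for A/J over C57BL/6J (1.28 ± 0.15) and *Abcd2*, a peroxisomal fatty acid transporter, for BALB/cJ below C57BL/6J (-1.02 ± 0.14).

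Stellate cells set *Acot1* apart by strain. It was 17.5, 21.0, 33.1 and 21.6 TPM in A/J, beside 4.95, 4.07, 4.07 and 2.65 in BALB/cJ and 13.5, 10.6 and 8.77 in C57BL/6J, with no overlap among the 3 strains. The fitted differences were 2.62 ± 0.24 (A/J over BALB/cJ, adjusted p = 2.8e-05), 1.17 ± 0.25 (A/J over C57BL/6J, adjusted p = 0.0033) and -1.45 ± 0.26 (BALB/cJ below C57BL/6J, adjusted p = 0.0012). Without A/J replicate 3 the second fell below 2-fold (0.92). *Clec4f*, the Kupffer cell marker, was 842, 925, 2469 and 1274 TPM in the same A/J libraries, 87.1, 235, 342 and 186 in BALB/cJ and 536, 428 and 494 in C57BL/6J, so that it ran in the same order as *Acot1*, a gene highest in Kupffer cells, and its part in the *Acot1* difference was not tested. *Ehhadh* was 29.7, 7.80, 9.50 and 5.99 TPM in BALB/cJ and 57.8, 66.0 and 27.2 in C57BL/6J (-1.93 ± 0.56, adjusted p = 0.018), lost in 3 of 11 fits that left out 1 library (-1.82 to -1.69) and -2.61 without BALB/cJ replicate 1. *Alb* was 714, 183, 297 and 214 TPM in these BALB/cJ libraries and 1153, 1178 and 292 in those of C57BL/6J, and its part in the *Ehhadh* difference was not tested. These were the only members called of 25, 27 and 27 tested, against 8.32%, 7.3% and 9.08% of all genes.

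In PBS-treated BMDMs none of 16 members tested was called in any strain comparison by edgeR or DESeq2, against 4.25%, 5.66% and 4.66% of all genes, and 5, 8 and 7 had an unadjusted p under 0.05. Below the TPM limit, *Acaa1b* was 3.06 and 4.26 TPM in A/J, beside 5.80 and 5.00 in BALB/cJ and 0.028 and 0.248 in C57BL/6J, and without that limit it was called higher than in C57BL/6J by 4.55 ± 0.40 and 5.12 ± 0.38. *Ehhadh* was called alongside it under the same setting, at 2.22 and 2.12, 3.85 and 3.56, and 1.02 and 0.994 TPM.

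LPS changed members in both directions within 2 h. In Kupffer cells of BALB/cJ, C57BL/6J and CB6F1/J, the carnitine acyltransferases *Cpt1a* and *Crat* and the thioesterase *Acot1* fell, and the enoyl-CoA isomerase *Eci2* rose. Of 19, 22 and 22 members tested, 4, 7 and 2 were called higher and 4, 3 and 5 lower. Over all genes 31.8%, 38.2% and 39.4% were called, 17.4%, 20.9% and 21.4% higher and 14.4%, 17.3% and 18.1% lower, so the shares of called members lay near the background in BALB/cJ and C57BL/6J and, in CB6F1/J, below it for the higher calls. The balance of directions depended on scaling: LPS libraries had a median log2 TPM ratio to their controls of -0.46, -0.56 and -0.72 over the genes tested, and with library totals instead of TMM scaling the share of all calls that were higher went from 54.7, 54.6 and 54.1% to 25.9, 24.3 and 20.8% as the medians of all genes moved from 0.05, 0.08 and 0.11 to -0.49, -0.59 and -0.71. Under that scaling 1, 4 and 1 members were called higher and 8, 6 and 8 lower. *Cpt1a*, *Crat*, *Acot1* and *Eci2* were called in the same directions in all 3 strains under both scalings. Markers of cell types moved in these libraries too. The sum of 8 Kupffer cell markers was 15617 and 16874 TPM in control and 11236 and 12141 in LPS libraries of BALB/cJ, 17049 and 16318 against 11717 and 9576 in C57BL/6J, and 13618 to 15303 against 8964 to 9913 in CB6F1/J. The sum of 4 neutrophil markers was 90.7 and 86.5 against 190 and 175 TPM, 110 and 122 against 278 and 327, and 75.5 to 85.4 against 211 to 324. Their part in the changes of the members was not tested.

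*Cpt1a* was 114 and 106 TPM in control and 23.6 and 25.3 in LPS libraries of BALB/cJ, 126 and 113 against 24.4 and 21.4 in C57BL/6J, and 121 to 135 (4 libraries) against 12.5 to 19.05 (5 libraries) in CB6F1/J. *Crat* was 22.9 and 24.4 against 5.48 and 5.40 TPM, 25.3 and 25.5 against 4.10 and 4.09, and 22.3 to 26.4 against 3.70 to 4.73. *Acot1* was 52.8 and 55.1 against 1.89 and 4.35 TPM, 57.4 and 64.3 against 5.95 and 5.33, and 79.6 to 92.1 against 3.68 to 8.22. Control and LPS libraries did not overlap for any of these genes in any strain. The fitted changes of *Cpt1a* were -1.64 ± 0.14, -1.71 ± 0.14 and -2.07 ± 0.10 (adjusted p = 1.1e-05, 7.2e-06 and 7.7e-10). Those of *Crat* were -1.59 ± 0.15, -1.96 ± 0.15 and -1.70 ± 0.09. *Acot1* changed most, by -3.76 ± 0.32 (-3.09 without BALB/cJ LPS replicate 1), -2.76 ± 0.29 and -3.06 ± 0.20. *Crat* overlaps *Dolpp1* in the annotation, so reads at their shared positions may be uncertain.

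Against these, *Eci2*, the peroxisomal and mitochondrial isomerase of unsaturated chains, rose from 22.7 and 28.0 to 70.2 and 87.2 TPM in BALB/cJ, from 37.3 and 36.4 to 74.8 and 74.6 in C57BL/6J and from 27.6 to 30.6 to 66.2 to 104 in CB6F1/J, again with no overlap. The fitted changes were 2.17 ± 0.18, 1.69 ± 0.17 and 2.28 ± 0.15 (adjusted p = 8.1e-06, 2.9e-05 and 2e-08), and 1.63, 1.02 and 1.45 with library totals. Its relative *Eci1* was tested as well and was not called in any strain (-0.54, -0.05 and -0.42), although with library totals it was called lower in BALB/cJ (-1.07) and CB6F1/J (-1.25). Among the dehydrogenase steps, *Etfdh* was 24.0 and 23.1 against 6.22 and 10.1 TPM in BALB/cJ, 20.2 and 21.5 against 6.66 and 7.30 in C57BL/6J and 21.4 to 22.4 against 3.95 to 6.17 in CB6F1/J. It was called in BALB/cJ (-1.04 ± 0.24, adjusted p = 0.0052) and CB6F1/J (-1.29 ± 0.14) and passed adjusted p without reaching 2-fold in C57BL/6J (-0.90). The BALB/cJ call was lost without control replicate 1 or LPS replicate 1 (-0.99 and -0.68). *Acadm* was 28.0 and 24.2 against 9.16 and 10.0 TPM, 28.1 and 23.6 against 10.1 and 10.5, and 28.97 to 32.7 against 6.32 to 8.99, called only in CB6F1/J (-1.20 ± 0.12) but in all 3 strains with library totals (-1.45, -1.33 and -2.02). With library totals *Cpt2* was also called lower in all 3 strains (-1.17, -1.32 and -1.39) and *Acaa2* in BALB/cJ and CB6F1/J (-1.44 and -1.36). Except for *Etfdh*, *Acadm* and *Acaa2*, the mitochondrial beta-oxidation genes that were tested were called under neither scaling. *Hadhb* was not among the genes tested in CB6F1/J.

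**Figure D3:**
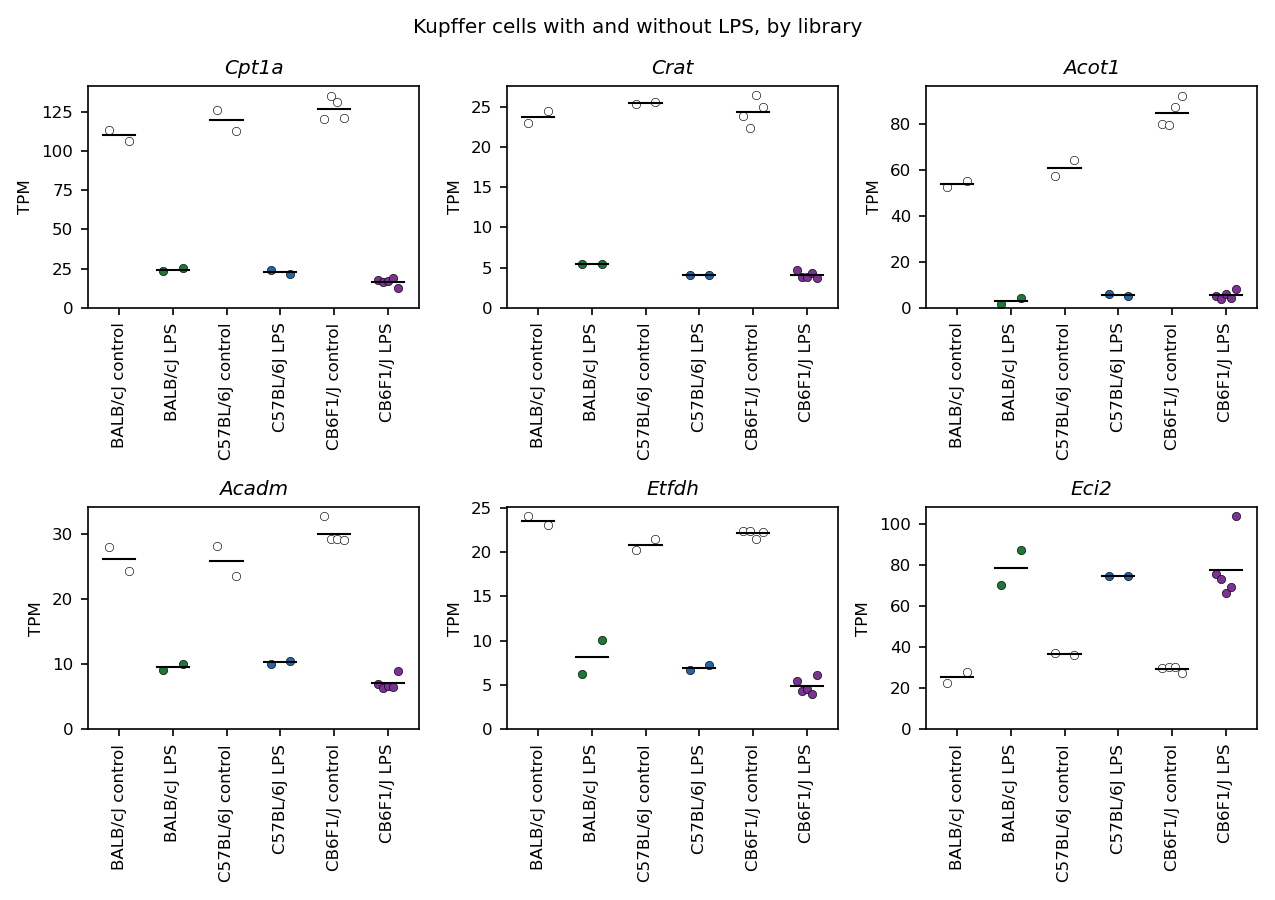
Level in TPM of 6 members in Kupffer cells of 3 strains, without (open) and with LPS (filled) for 2 h; points are libraries and bars are group means. *Cpt1a*, *Crat*, *Acot1*, *Acadm* and *Etfdh* lie lower and *Eci2* lies higher in every LPS library than in any control library of its strain.

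The remaining called members were genes that hepatocytes hold at far higher levels. *Fabp1* was 10.8 and 19.3 against 21.3 and 40.1 TPM in BALB/cJ (1.53 ± 0.49, adjusted p = 0.025), 9.8 and 12.8 against 35.8 and 74.3 in C57BL/6J (2.97 ± 0.51, adjusted p = 9.4e-04) and 21.99 to 57 against 25.5 to 113 in CB6F1/J (1.21 ± 0.47, adjusted p = 0.031), where the groups overlapped. *Slc27a2* was 2.34 and 4.77 against 7.33 and 9.42 TPM in BALB/cJ (1.77 ± 0.56) and 3.22 and 6.47 against 10.6 and 24.5 in C57BL/6J (2.55 ± 0.55). *Ehhadh* was 4.29 and 4.65 against 8.89 and 8.05 TPM in BALB/cJ (1.46 ± 0.33) and 14.9 and 13.3 against 12.5 and 25.1 in C57BL/6J (1.10 ± 0.31), the latter with overlap. In C57BL/6J alone, *Acaa1b* (5.02 and 7.74 against 11.4 and 25.1 TPM, 2.21 ± 0.41), *Cyp4a10* (6.47 and 11.03 against 9.35 and 24.2, 1.63 ± 0.53) and *Acsl1* (22.8 and 22.9 against 33.0 and 33.3, 1.21 ± 0.15) were also called higher. The hepatocyte marker *Alb* moved in the same libraries, at 77.5 and 161 against 187 and 340 TPM in BALB/cJ, 101 and 309 against 379 and 979 in C57BL/6J and 150 to 334 against 153 to 504 in CB6F1/J. The sum of 12 hepatocyte markers, which may not follow hepatocyte RNA in Kupffer cells, was 1602 to 2467 TPM in the inbred controls of these strains and 1589.97 to 2424 in LPS. Without C57BL/6J LPS replicate 2, the library with *Alb* at 979 TPM, the C57BL/6J calls of *Cyp4a10* (0.68, adjusted p = 0.22) and *Ehhadh* (0.41, adjusted p = 0.099) were lost, while *Slc27a2* (1.72, adjusted p = 0.017), *Fabp1* (2.25) and *Acaa1b* (1.42) were smaller and still called. *Ehhadh* also lost its call without C57BL/6J control replicate 2 and *Cyp4a10* without control replicate 1 (1.03 and 1.27), and *Slc27a2* was 3.15 without control replicate 2. In BALB/cJ, *Fabp1* was lost without control replicate 1 or LPS replicate 2 (1.01 to 1.17, adjusted p = 0.13 to 0.14) and *Slc27a2* without control replicate 1 or LPS replicate 1 (1.34 to 1.97, adjusted p = 0.075 to 0.14). In CB6F1/J, *Fabp1* was lost without LPS replicate 5 (*Alb* 504 TPM; 0.60, adjusted p = 0.076) and without control replicate 3 or 4. With library totals *Fabp1*, *Slc27a2* and *Ehhadh* lost their calls in BALB/cJ, *Ehhadh*, *Cyp4a10* and *Acsl1* in C57BL/6J, and *Fabp1* in CB6F1/J (0.39). The part of hepatocyte RNA in these rises was not tested.

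No member was called for a difference between the BALB/cJ and C57BL/6J responses to LPS, of 22 tested by edgeR or DESeq2, against 0.645% of all genes, and 5 had an unadjusted p under 0.05.

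Beyond the members, LPS lowered the partner of the receptor. *Rxra*, the retinoid X receptor alpha, was 329 and 301 against 24.6 and 32.6 TPM in BALB/cJ and 275 and 214 against 17.97 and 14.5 in C57BL/6J, with fitted changes of -2.93 ± 0.20, -3.24 ± 0.20 and, in CB6F1/J, -3.46 ± 0.07. *Ppard*, the sister receptor, was called higher in all 3 strains (1.25, 1.63 and 1.60). Over the 4 lists, 5, 8 and 5 genes were called higher and 10, 10 and 12 lower of 45, 46 and 44 tested. Of 11 tested genes of other peroxisomal oxidation, 0 were called higher and 4, 3 and 4 lower, led by the transporter *Abcd2* (-3.23, -4.86 and -3.92) and including the branched-chain oxidase *Acox3* (-1.88, -1.94 and -1.70). Of the mitochondrial list, the thioesterase *Acot2* fell (-3.40, -3.89 and -4.97), as did short-chain dehydrogenase *Acads* (-1.05, -1.33 and -1.61), and the synthetase *Acsl5* rose (1.96, 2.14 and 2.10). Of the other targets, *Hilpda*, an inhibitor of lipolysis, rose (2.49, 3.56 and 3.02).

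In BMDMs, KLA for 2 h raised the synthetase *Acsl1* in all 4 strains. *Acsl1* was 25.95 and 25.1 TPM with PBS and 61.0 and 73.0 with KLA in A/J, 31.3 and 25.5 against 99.9 and 125 in BALB/cJ, 32.8 and 30.7 against 135 and 141 in C57BL/6J and 35.7 and 40.9 against 133 and 168 in CB6F1/J. PBS and KLA libraries did not overlap in any strain. The fitted rises were 1.73 ± 0.12, 2.30 ± 0.12, 2.42 ± 0.12 and 2.32 ± 0.16, and *Acsl1* was the only member called of 16, 16, 15 and 16 tested, against 12.3%, 14%, 17.1% and 12.4% of all genes. It was called with library totals as well (1.41, 1.96, 2.11 and 1.94). Smaller changes passed adjusted p under 0.05 alone, a rule that 59.6%, 60.9%, 68.8% and 49.1% of all genes met. *Cpt1a* was 49.1 and 49.8 against 22.9 and 26.7 TPM in A/J, beside 54.4 and 52.1 against 29.4 and 31.8 in BALB/cJ, 48.3 and 47.8 against 23.5 and 24.0 in C57BL/6J and 48.5 and 52.2 against 32.8 and 30.8 in CB6F1/J (-0.66, -0.48, -0.71 and -0.32), with no overlap. *Cpt2* differed likewise (-0.55, -0.40, -0.67 and -0.41), and the thiolase *Acaa1a* was higher (0.41, 0.67, 0.73 and 0.44). *Crat*, *Acadm* and *Etfdh* were lower in the 3 inbred strains (-0.79 to -0.20). The KLA libraries had a median log2 TPM ratio to PBS of -0.22 to -0.27, and with library totals the share of all calls that were higher went from 66, 66.2, 62.4 and 71.4% to 38.9, 40.2, 39 and 43.2%. Under that scaling *Cpt1a* (-1.03) and *Crat* (-1.10) were also called in C57BL/6J.

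The KLA response of no member was called different between strains, of 16 tested, by edgeR or DESeq2, against 0.967% (A/J and BALB/cJ), 1.59% (A/J and C57BL/6J) and 1.14% (BALB/cJ and C57BL/6J) of all genes. An unadjusted p under 0.05 was found for 1, 4 and 2 members, and *Acsl1* (-0.69 ± 0.16, adjusted p = 0.014) and *Eci2* (-0.53 ± 0.13, adjusted p = 0.018) responded less in A/J than in C57BL/6J without reaching 2-fold. Of the other pathway genes, *Txnip*, an arrestin-family regulator of glucose uptake, was called lower in all 4 strains (-2.50, -2.45, -3.00 and -2.15), and 1, 0, 0 and 0 genes were called higher and 1, 3, 8 and 3 lower of 40, 40, 40 and 38 tested. LPS in Kupffer cells and KLA in BMDMs differ in agonist, dose, setting and cell, and their changes stand side by side in the plot of fitted responses without a test between them.

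**Figure D4:**
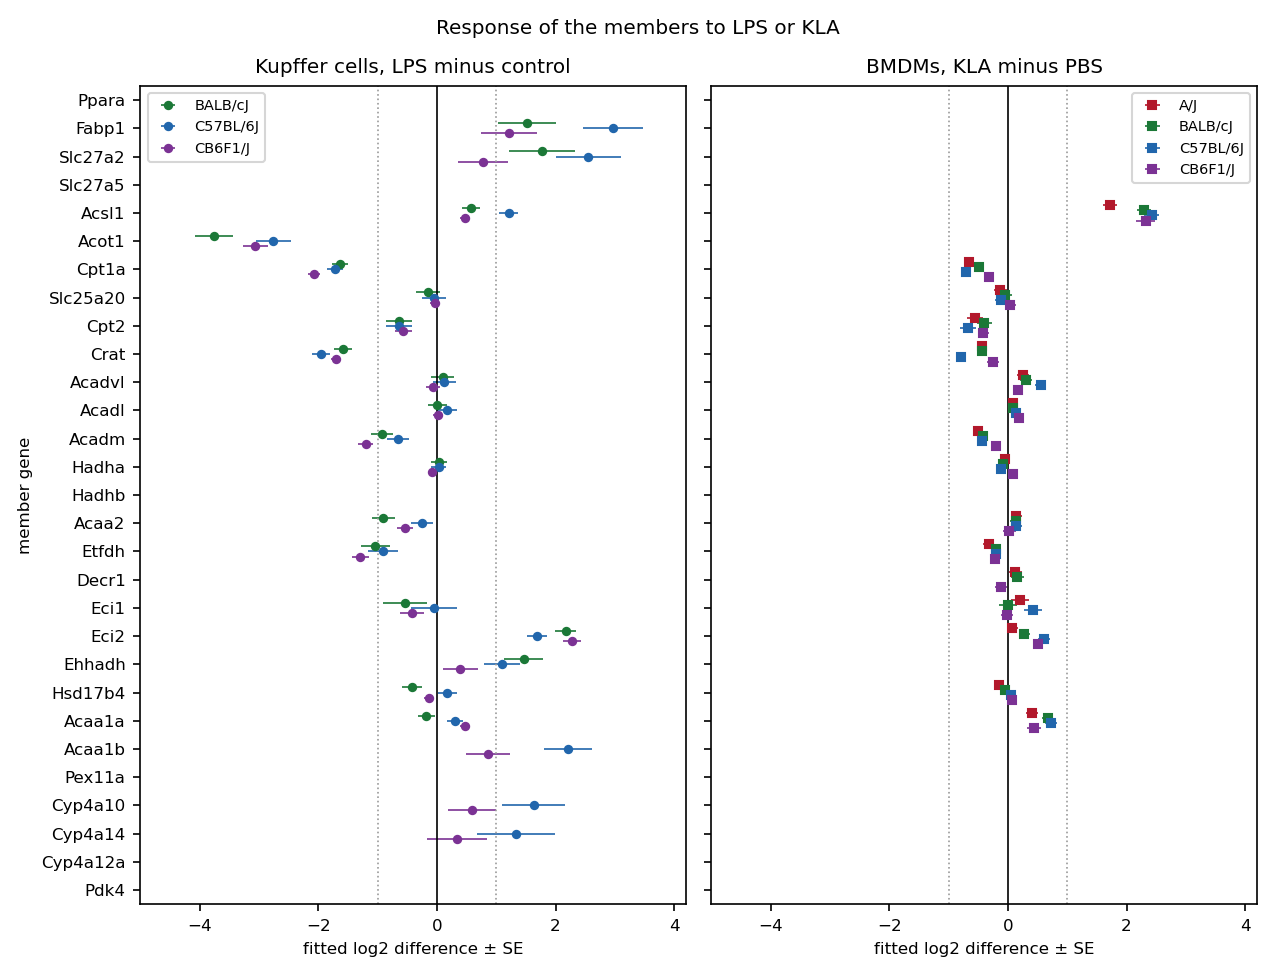
Fitted log2 differences with SE of the tested members for LPS minus control in Kupffer cells (left) and KLA minus PBS in BMDMs (right); colors are strains, dotted lines mark 2-fold, and members without a symbol were not tested. *Acot1*, *Cpt1a* and *Crat* lie beyond -1 with LPS in all 3 strains and *Eci2* beyond 1, while with KLA only *Acsl1* lies beyond 1.

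After 30 weeks of the AMLN diet, the thioesterase *Acot1* fell in Kupffer cells of C57BL/6J, from 57.4 and 64.3 to 17.5, 21.3, 20.6 and 17.03 TPM (-1.46 ± 0.22, adjusted p = 3.3e-04). In BALB/cJ it was 52.8 and 55.1 without and 72.1, 66.5 and 67.4 with the diet, and in A/J 80.9 and 82.2 without and 43.4, 98.8, 71.5 and 84.7 with it. The C57BL/6J response was lower than that of A/J (1.45 ± 0.32 for A/J minus C57BL/6J, adjusted p = 0.034) and of BALB/cJ (1.69 ± 0.32, adjusted p = 0.0095). The difference from A/J was lost in 10 of 17 fits that left out 1 library (1.35 to 1.55), that from BALB/cJ without BALB/cJ control replicate 1 (1.66, adjusted p = 0.061). *Acot1* was the only C57BL/6J member called of 20 tested, where 12.1% of all genes were called. The peroxisomal *Hsd17b4* was 77.0 and 78.6 TPM without and 113, 109, 101 and 107 with the diet in C57BL/6J, with no overlap, and *Hadha* also passed adjusted p below 2-fold (0.67 ± 0.12 and 0.81 ± 0.12, adjusted p = 0.0013 and 4.1e-04). In these C57BL/6J diet libraries *Clec4f* was 1595 to 2345 TPM beside 5881 and 5275 in the controls, and the sum of 6 monocyte and recruited macrophage markers was 753 to 1126 TPM beside 9.08 to 11.7. The part of recruited cells in the C57BL/6J changes was not tested.

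*Pdk4* rose on the diet in BALB/cJ. It was 11.8, 10.96 and 22.6 TPM in BALB/cJ against 1.77 and 1.70 in its controls (3.00 ± 0.68, adjusted p = 0.014), 1.00, 10.7, 8.87 and 8.90 in A/J against 1.97 and 2.54, and 0.501 to 1.06 in C57BL/6J against 2.03 and 1.75, so that the A/J and C57BL/6J diet libraries overlapped. It was the only BALB/cJ member called of 26 tested, against 5.17% of all genes, and the call was lost without either BALB/cJ control or without diet replicate 3 (2.59 to 3.00, adjusted p = 0.058 to 0.16). The BALB/cJ response exceeded that of C57BL/6J by 4.16 ± 0.90 (adjusted p = 0.015, lost in 3 of 17 fits that left out 1 library). The A/J response minus that of BALB/cJ was -1.19 ± 0.85 (adjusted p = 0.73), and *Pdk4* did not pass the TPM limit for A/J against C57BL/6J. LSEC and stellate cell markers, populations in which *Pdk4* was high, moved in the same libraries. The sum of 8 LSEC markers was 831, 597 and 2452 TPM in BALB/cJ on the diet against 161 in both controls, 263, 977, 695 and 812 in A/J against 262 and 265, and 112 to 196 in C57BL/6J against 205 and 199.7. The sum of 8 stellate cell markers was 1003, 560 and 1168 TPM in BALB/cJ against 365 and 300.1, 125, 539, 89.5 and 529 in A/J against 163 and 191, and 120 to 181 in C57BL/6J against 236 and 213. The part of these cells in the *Pdk4* change was not tested. *Ehhadh* differed between the BALB/cJ and C57BL/6J responses by 4.05 ± 1.13 (adjusted p = 0.042, lost in 12 of 17). *Ehhadh* was 16.8, 38.1 and 47.0 TPM in BALB/cJ on the diet against 4.29 and 4.65 in controls, and 5.17, 6.54, 3.95 and 4.72 in C57BL/6J against 14.9 and 13.3. With *Acot1*, these were the 3 members called of 26 tested, against 6.38% of all genes. For A/J minus C57BL/6J, *Acot1* was the only member called of 24 tested, against 1.45%. For A/J minus BALB/cJ none of 27 was called, against 0.247%, none by DESeq2 and none at an unadjusted p under 0.05.

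The diet libraries differed in hepatocyte RNA. *Alb* was 130, 2014, 63.9 and 1627 TPM in A/J, beside 951, 1426 and 862 in BALB/cJ and 95.7, 365, 101 and 126 in C57BL/6J. The A/J libraries high in *Alb*, replicates 2 and 4, were also the ones high in *Ehhadh* (82.5 and 62.0 TPM, against 6.51 and 8.74), in *Fabp1* (240 and 76.4, against 22.9 and 3.70) and in *Cyp4a14* (98.6 and 125, against 3.08 and 7.01). In A/J none of 24 members was called by edgeR, against 3.49% of all genes, 11 had an unadjusted p under 0.05, and DESeq2 called *Ehhadh* and *Acaa1b*. When A/J replicates 2 and 4 were left out, an alternative chosen after seeing the data, 9 members were called higher in BALB/cJ: *Slc27a2* (3.28), *Slc27a5* (3.08), *Pdk4* (3.00), *Acaa1b* (2.90), *Cyp4a14* (2.79), *Ehhadh* (2.78), *Cyp4a10* (2.62), *Fabp1* (2.38) and *Acsl1* (1.04). In C57BL/6J *Acot1* (-1.46), *Cyp4a10* (-2.11), *Cyp4a14* (-2.33) and *Ehhadh* (-1.26) were then called lower. The sizes were the same with all libraries in the fit, for instance 2.78 ± 0.88 for *Ehhadh* in BALB/cJ (adjusted p = 0.075) and -2.11 ± 1.01 for *Cyp4a10* in C57BL/6J (adjusted p = 0.12), where the spread of the A/J libraries entered the error. The part of hepatocyte RNA in these changes was not tested.

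Outside the member list, *Mgll*, monoglyceride lipase, was called higher on the diet in A/J (2.85 ± 0.59) and BALB/cJ (5.15 ± 0.69). Over the 4 lists, 1 of 47, 4 of 48 and 3 of 45 tested genes were called higher and 0, 0 and 1 lower for the strains A/J, BALB/cJ, C57BL/6J in turn, with the fatty acid transporter *Cd36* among those in BALB/cJ (2.34 ± 0.57) and the lipoprotein lipase *Lpl* (1.96 ± 0.57) and the receptor *Pparg* (1.39 ± 0.34) among those in C57BL/6J.

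In NSG hosts *Acot1* was low in Kupffer cells of every donor: 15.9, 13.6 and 18.01 TPM for BALB/cJ, 6.26, 14.3 and 14.8 for C57BL/6J and 12.4, 15.5 and 7.63 for CB6F1/J, each below every untreated Kupffer library of its strain. Against untreated cells the fitted differences were -1.79 ± 0.28 for BALB/cJ (adjusted p = 0.0013) and -2.41 ± 0.28 for C57BL/6J (adjusted p = 1.3e-04). It was the only member called in BALB/cJ of 17 tested, against 5.48% of all genes. In C57BL/6J 4 of 21 were called, all lower, where 8.44% of all genes were called and 2.75% were called lower. Besides *Acot1*, these were *Ehhadh* (14.9 and 13.3 against 6.91, 5.36 and 6.20 TPM, -1.25 ± 0.20), *Cyp4a10* (6.47 and 11.03 against 0.704, 0.273 and 1.28, -3.59 ± 0.49) and *Cyp4a14* (10.5 and 28.9 against 0.327, 0.569 and 1.13, -4.90 ± 0.50). Without C57BL/6J untreated replicate 2 *Cyp4a14* was -3.99, and without NSG replicate 3 it was -5.49 and *Cyp4a10* -4.25. With BALB/cJ donors *Cyp4a10* was at most 0.076 and *Cyp4a14* at most 0.048 TPM, beside 2.34 to 4.04 and 4.52 to 5.63 in untreated BALB/cJ cells. *Alb* was 88.2 to 308 TPM in NSG libraries of the inbred donors and 77.5 to 309 in their untreated cells. The sum of the 12 hepatocyte markers was 714 to 1288 TPM beside 1602 to 2467. *Alb* was a minor part of these sums, which may not follow hepatocyte RNA in Kupffer cells. The part of hepatocyte RNA in the *Cyp4a10* and *Cyp4a14* differences was not tested. The sum of 6 monocyte and recruited macrophage markers was 123 to 176 TPM with C57BL/6J donors against 9.08 to 11.7 in untreated cells, and 117 to 177 against 97.5 to 106 for BALB/cJ, while *Clec4f* was 3343 to 4383 against 5275 to 5881 TPM and 5829 to 7024 against 7270 to 7568. The part of these cells in the changes was not tested, nor whether the 2 donors differed in them.

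Between donors in the shared host, none of 18 members was called by edgeR or DESeq2, against 3.98% of all genes, and 4 had an unadjusted p under 0.05. *Hsd17b4* was 69.5, 68.0 and 67.2 TPM with BALB/cJ and 111, 109 and 112 with C57BL/6J donors, without overlap, and passed adjusted p below 2-fold (-0.64 ± 0.09, adjusted p = 1.2e-04). In CB6F1/J donor cells it was 83.8, 83.3 and 65.7 TPM. Of the other targets, *Angptl4*, a secreted inhibitor of lipoprotein lipase, was lower in NSG hosts with both donors (-1.96 ± 0.28 and -2.47 ± 0.28), as was the lipid droplet coat *Plin2* (-1.36 ± 0.15 and -1.16 ± 0.15), and over the 4 lists none was called higher and 4 of 44 and 4 of 46 lower.

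**Figure D5:**
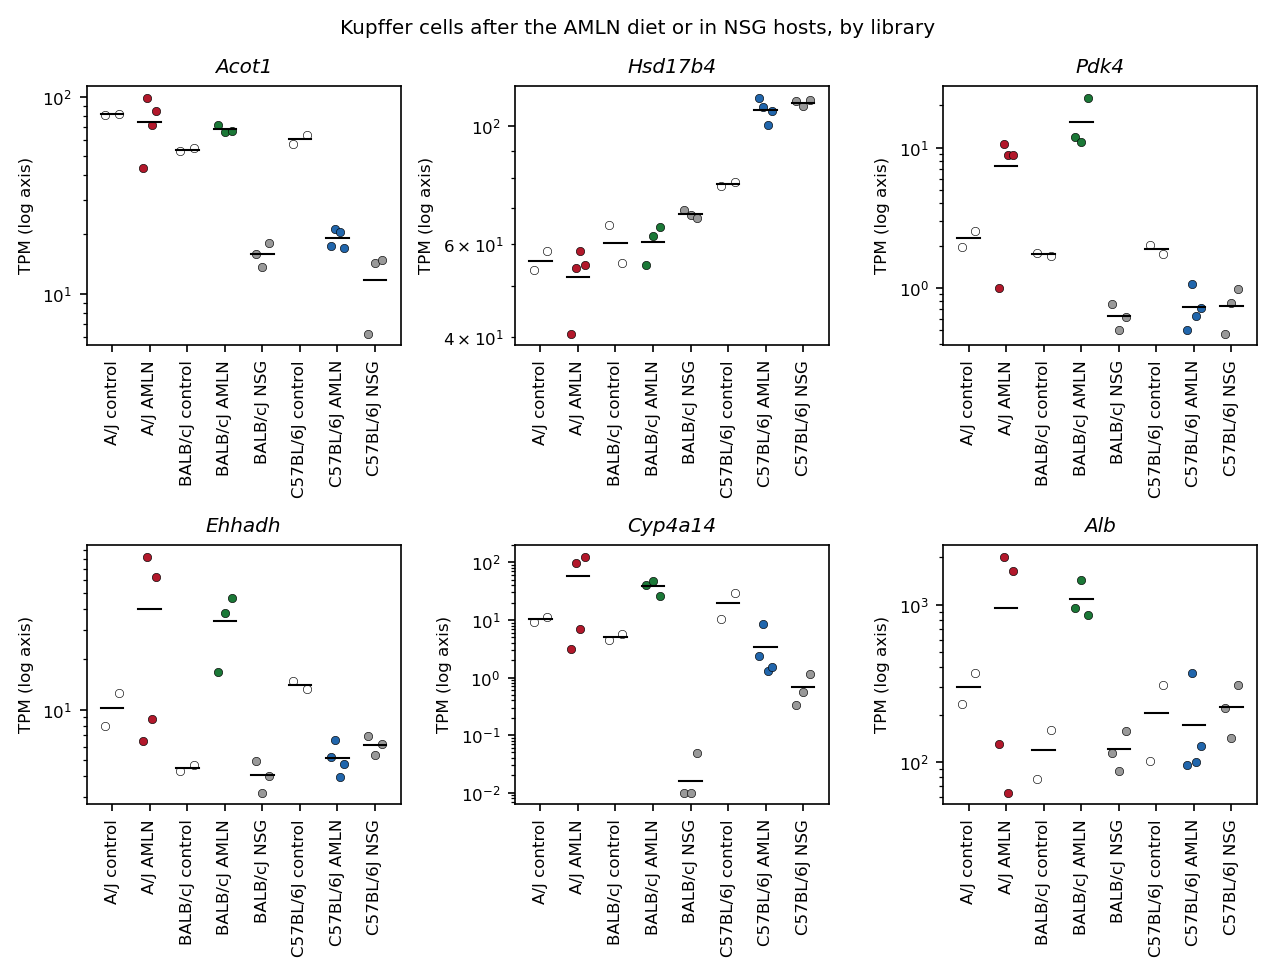
Level in TPM (log axes) of 5 members and of *Alb* in Kupffer cells of 3 strains, untreated (open), after 30 weeks of the AMLN diet (colored) or from donor cells in NSG hosts (gray); points are libraries, bars are group means, and libraries at 0 are drawn at 0.01 TPM. *Acot1* is lower in C57BL/6J diet libraries and in NSG libraries, and *Ehhadh* and *Cyp4a14* are high in the A/J and BALB/cJ diet libraries that are high in *Alb*.

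Both alleles of a gene share 1 cell in the CB6F1/J hybrid, and reads over variants assign them. Of 10, 8, 4, 8 and 7 members with at least 10 such reads per mouse in untreated, LPS and NSG Kupffer cells and in PBS and KLA BMDMs, none was called beyond 2-fold by edgeR, against 3.79%, 5.3%, 2.2%, 1.83% and 2.61% of all genes, and 2, 2, 1, 2 and 1 had an unadjusted p under 0.05. In all groups but NSG the members tested include *Hsd17b4* and *Acadvl*. As described below, the reads of these genes do not measure allele balance, so their lack of a call is not informative. In untreated Kupffer cells *Cyp4a14* passed adjusted p alone (-0.65 ± 0.12 as the BALB/cJ minus the C57BL/6J allele, adjusted p = 0.021), a rule met by 26.8% of all genes. Its BALB/cJ share was 43.0, 40.3, 34.4 and 32.0% in the 4 mice, from 335, 464, 195 and 103 reads, below 50% in each, with an exact 95% interval of 23.2 to 42.0% for the shallowest, which covers counting error only. With LPS the shares were 48.9, 42.1, 80.7, 24.2 and 19.6%, on both sides of 50%, and no difference passed the test. *Cyp4a14* overlaps *Gm52676* in the annotation and has close paralogs, so its reads are uncertain. *Eci2*, which rose with LPS, had BALB/cJ shares of 46.7, 45.1, 44.3, 44.6 and 48.9% there (-0.23 ± 0.05, adjusted p = 0.031, a rule met by 22.4% of all genes) and 49.5, 46.7, 51.2 and 52.1% in untreated cells. *Slc27a2* in LPS cells had shares of 10.9 to 41.7%, a difference of -1.37 ± 0.36 that missed the threshold in edgeR (adjusted p = 0.057) and that DESeq2 called (-1.39, adjusted p = 0.013). *Hsd17b4*, whose total differed between donors in NSG hosts, had 382 BALB/cJ and 388 C57BL/6J reads in the first untreated mouse and shares of 49.5 to 49.7% in all 4. *Acadvl* had equal counts for both genomes in each LPS mouse, such as 35 and 35 in the first and 74 and 74 in the second. Over the 13 libraries with such reads, chi-square of equal counts summed to 1.35 for *Hsd17b4* and 0.097 for *Acadvl*. Separate reads of equally expressed alleles would give about 1 per library by binomial counting. The counts of these 2 genes lay closer together than that, so their shares do not measure allele balance. Whether reads were counted for both genomes was not tested, and the closeness of the counts was not checked for the other members.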

How the data were processed

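RNA-seq reads of 85 libraries in 30 groups were aligned by the authors with STAR to mm10 or to mm10 carrying the strain's variants, and A/J and BALB/cJ reads were shifted back to mm10 coordinates. HOMER then gave the deposited raw counts per gene over exons. The deposited TPM values are those of the isoform with the highest count, so that they do not sum to the same total in every library. For BMDMs and CB6F1/J the authors deposited estimated counts that can hold a fraction of 0.5, and these were rounded here. The hybrid tables hold perfectly mapped reads and reads over variants for each parental genome, and the hybrid totals used here are their sum over both genomes. Versions of the aligner and counter are not given in the sources used here. BMDM PBS and KLA reads, like the others, were not pooled between replicates.

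Differences were fitted with edgeR 4.0.16 (quasi-likelihood, robust, TMM scaling) in R 4.3.3, 1 fit per family of groups, on genes kept by filterByExpr with a mean above 8 TPM in at least 1 group compared, with Benjamini-Hochberg adjustment over all genes tested. Calls required adjusted p under 0.05 and more than 2-fold. SE is the log2 difference divided by the square root of F. Allele counts were fitted with the mouse as a block, for genes with a mean of at least 10 variant reads per mouse. The fits were tested on simulated data. Each library was left out in turn, and DESeq2 1.42.0, median-of-ratios size factors, library totals, other filters, fits of 2 groups and a replicate block were tried. The members and lists were chosen with earlier results of these data known, and genes were named by a rule: all members are accounted for, called members with their values, up to 3 called genes for each other list. A gene of these lists is counted with them and otherwise not reported here. Fits without libraries high in *Alb*, the joint hepatocyte and LSEC fit and library totals were added after seeing the data. The main fits did not pair samples by replicate number. In no family did every pair of libraries with the same number deviate together with a correlation above 0.1. That rule cannot exclude partial pairing. The correlation had a median of 0.143 in LSECs (-0.366 to 0.58) and 0.2 in stellate cells (-0.24 to 0.374). Medians of the other families lay between -0.0429 and 0.0931. No 2 replicates agreed within counting noise (lowest chi-square per degree of freedom 4.24). Depth was 5254797 to 42779190 counts per inbred library and 100283080 to 250588908 summed reads per hybrid library, where a read without a variant can count for both genomes; for the 3 hybrid NSG libraries TPM and 4756244 to 8872965 variant reads were used. Intervals of allele shares are exact 95% binomial intervals. Promoter sequences are from RefSeq.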

Additional observations from a re-analysis of the deposited data

Results flagged for a closer look

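Among groups of 4 or 5 libraries, 1 library stood apart from the others of its group, by Dixon's test at the 95% level, in 33 of 206 pairs of a member and a group, over 9 groups. Chance gives about 1 in 20. BALB/cJ LSEC replicate 1, the library with *Alb* at 5223 TPM, accounted for 19 of them. It was the highest of its group for *Fabp1* (426 TPM), *Slc27a2* (234), *Slc27a5* (71.9), *Acsl1* (248), *Slc25a20* (38.6), *Cpt2* (34.9), *Acadvl* (60.9), *Acadm* (70.4), *Acaa2* (131), *Etfdh* (59.2), *Decr1* (22.9), *Eci2* (67.9), *Ehhadh* (175), *Hsd17b4* (60.9), *Acaa1a* (47.0), *Acaa1b* (163), *Cyp4a10* (271.8), *Cyp4a14* (474) and *Cyp4a12a* (31.2), all in TPM. BALB/cJ stellate replicate 1, with *Alb* at 714 TPM against 183 to 297 in the others, was highest for *Fabp1* (77.9 TPM), *Acsl1* (40.3), *Ehhadh* (29.7), *Acaa1b* (25.3), *Cyp4a10* (37.6) and *Cyp4a14* (56.2). CB6F1/J LPS replicate 5, with *Alb* at 504 TPM, was highest for *Fabp1* (113 TPM), *Acaa2* (24.4) and *Eci2* (104). The part of hepatocyte RNA in these values was not tested. Single values that stood apart were *Acadvl* in C57BL/6J LSEC replicate 3 (21.9 TPM), *Acadm* in CB6F1/J untreated Kupffer replicate 1 (32.7 TPM), *Etfdh* in CB6F1/J untreated Kupffer replicate 3 (21.4 TPM), *Acaa2* in C57BL/6J AMLN replicate 2 (53.5 TPM) and *Eci2* in A/J AMLN replicate 1 (25.1 TPM).

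Effects that differed between strains or cell types, by an interaction term in edgeR's quasi-likelihood test, were the AMLN response of *Acot1* in A/J minus C57BL/6J (1.45) and BALB/cJ minus C57BL/6J (1.69), and those of *Ehhadh* (4.05) and *Pdk4* (4.16) in BALB/cJ minus C57BL/6J. The strain difference in hepatocytes minus that in LSECs was 5.43 for *Cyp4a10*, 6.15 for *Cyp4a14* and -1.20 for *Pdk4* in A/J minus BALB/cJ, and -6.75, -7.12 and 1.61 in BALB/cJ minus C57BL/6J. All are log2 differences.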

How the results depend on the processing

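Of 137 called results of single members, 105 were called under every alternative tried and none reversed. Over their 4437 alternatives, 4318 kept the call and 119 lost it in the same direction. The comparisons by cell type, with 36 left-out fits each, enter these pooled counts, and only *Hadhb*, *Cpt1a* and *Cyp4a14* lost a call there. With each library left out in turn, members called in at least 1 comparison numbered 28 to 28 by cell type (28 with all libraries), 1 to 8 by strain in hepatocytes (2), 1 to 4 in Kupffer cells (3), 0 to 3 in LSECs (0), 1 to 6 in stellate cells (2), 0 to 0 in BMDMs (0), 1 to 1 with KLA (1), 10 to 13 with LPS (11), 1 to 9 with AMLN (3), 3 to 5 for NSG hosts (4), 7 to 10 for the CB6F1/J responses (8), 0 to 1 for alleles (0) and 1 to 5 for hepatocytes against LSECs (3). A group left with 1 library was assumed to vary like the others. Other settings moved LSECs to 5 without the libraries high in *Alb*, BMDM strains to 2 with filterByExpr alone and 2 without a filter, KLA to 3 with library totals, NSG hosts to 8 without a filter and alleles to 1 with DESeq2. AMLN went to 8 with DESeq2, 9 with fits of 2 groups and 10 without the A/J libraries high in *Alb*. The cause was not tested, except that the filters change which genes are tested. Partial pairing by replicate number was not excluded. With the replicate block AMLN went to 5, and the counts were 28 by cell type, 3 in hepatocytes, 4 in Kupffer cells, 0 in LSECs, 3 in stellate cells, 0 in BMDMs, 1 with KLA, 12 with LPS, 4 for NSG hosts, 7 for CB6F1/J and 3 for hepatocytes against LSECs, and without the block alleles stayed at 0.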
